A study of Mus musculus with 8 samples.

Results

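The genes of the MHC class I antigen presentation pathway were followed across 4 mouse models of endometrial cancer. The set held 10 of the 24419 genes of the count table: the heavy chains H2-K1 and H2-D1, the light chain B2m, the peptide transporter subunits Tap1 and Tap2, the loading chaperone Tapbp, the immunoproteasome subunits Psmb8, Psmb9 and Psmb10, and the transactivator Nlrc5. By the GENCODE M21 annotation of GRCm38, Psmb9, Tap1, Psmb8 and Tap2 lie side by side on chromosome 17 (chr17:34181987-34216321), which also carries Tapbp (chr17:33915899-33929292), H2-K1 (chr17:33996017-34000347) and H2-D1 (chr17:35262730-35267499), while B2m lies on chromosome 2 (chr2:122147686-122153083) and Psmb10 (chr8:105935735-105938444) and Nlrc5 (chr8:94434356-94527272) on chromosome 8. The members were chosen by symbol for their role in the pathway, and all 10 passed the filter on low counts, as did 15875 genes in all. The models were called TPM, TPMCa, TPMR1 and TPK, with 2 libraries of bulk RNA each. Per the study's methods, uterus organoids were grown from female CAG-Cas9-EGFP mice of 8 to 10 weeks, edited, and transplanted into the uterus of female BALB/cA-nu mice of 8 weeks, and tumor tissue was taken about 2 months later. The labels instead describe tumor organoids, with nude mice as the strain. All 4 models carried a set of edits that included an sgRNA against Trp53. TPM also overexpressed Myc from a retroviral vector. TPMCa (TPMPik3ca in the labels) had a mutant Pik3ca cDNA on top of the TPM alterations, and TPMR1 (TPMPik3r1 in the labels) had an sgRNA against Pik3r1 on top of them. TPK had no introduced Myc.

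Almost all nucleated cells show fragments of their own proteins on MHC class I molecules, where CD8 T cells and natural killer cells inspect them. Proteins are cut by the proteasome, the peptides are pumped into the endoplasmic reticulum by TAP, and a loading complex fits them onto a heavy chain paired with beta-2-microglobulin. Interferons raise the genes of this pathway in many cell types, and NLRC5 activates them through conserved promoter boxes. Loss of this machinery is a known feature of many cancers, and nude mice, which lack a thymus, have few mature T cells.

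Levels are given as CPM, counts scaled to a common library total, after TMM scaling, which corrects for differences in library composition. Total counts lay between 15748396 and 26943611, and a floor of 3 counts corresponded to 0.116 to 0.198 CPM, which covers counting error only. Replicates are separate mice per the study, although the labels do not tie libraries to mice. Myc was at 154 and 92.8 CPM in TPK and between 324 and 3080 CPM in the other 6 libraries. Pik3r1 was at 101 and 51.3 CPM in TPMR1 and between 78.1 and 188 CPM elsewhere, and Trp53 was detected in all libraries, at 33.2 to 131 CPM, so transcript levels do not check the edits. Markers of stroma and leukocytes were present in all libraries. The 6 epithelial markers Epcam, Cdh1, Krt7, Krt8, Krt18 and Krt19 summed to 2940 to 5500 CPM in TPK and TPM but to 6.47 to 73.3 CPM in TPMCa and TPMR1. In bulk RNA, fewer cells of a type and less RNA per cell cannot be told apart.

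The promoters of the heavy and light chain genes are shown first, since the boxes through which interferon, NF-kappaB and NLRC5 act on class I genes lie there. Windows of 250 bases before the start site were taken from RefSeq (GRCm38.p6) for 8 of the 10 genes. Tap2 and Nlrc5 had no entry. A total of 7 motifs was searched on both strands, and capitals mark matches to 5 of them: GGGNNTTNC (the NF-kappaB core), GAAANNGAA and GAANNGAAA (spacings of the interferon response element), TGACGC (part of the X2 box) and CCAAT (the Y box, seen as ATTGG on the opposite strand). GAANNGAAA was added after the heavy chain windows had been read.
H2-K1, minus strand, chr17:34000348-34000597: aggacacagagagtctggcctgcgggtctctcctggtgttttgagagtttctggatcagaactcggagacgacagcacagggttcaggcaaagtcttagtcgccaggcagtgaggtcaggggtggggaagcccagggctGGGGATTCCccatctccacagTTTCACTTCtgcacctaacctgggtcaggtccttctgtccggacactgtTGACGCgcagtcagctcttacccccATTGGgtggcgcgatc
B2m, plus strand, chr2:122147437-122147686: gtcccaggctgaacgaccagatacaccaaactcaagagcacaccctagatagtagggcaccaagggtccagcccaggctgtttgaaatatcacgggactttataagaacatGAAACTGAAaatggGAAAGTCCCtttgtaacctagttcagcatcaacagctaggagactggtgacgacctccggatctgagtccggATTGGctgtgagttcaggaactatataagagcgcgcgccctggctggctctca

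The order of boxes was shared by the heavy chain genes. The stretch from the NF-kappaB core to the interferon element was 30 bases long in both, and 29 of these bases were identical.
H2-K1, chr17:34000429-34000458: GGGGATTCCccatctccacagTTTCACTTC
H2-D1, chr17:35262923-35262952: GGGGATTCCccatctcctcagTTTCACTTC
The stretch from the X2 motif to the Y box was also 30 bases long in both, with 23 identical bases.
H2-K1, chr17:34000359-34000388: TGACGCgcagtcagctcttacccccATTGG
H2-D1, chr17:35262993-35263022: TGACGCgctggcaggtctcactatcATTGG
Among 32817 mouse promoter windows of this length, GGGNNTTNC was found in 13%, GAANNGAAA in 6.31%, GAAANNGAA in 7.12%, TGACGC in 6.11% and CCAAT in 33.8%. The remaining 2 motifs, TTCNNNGAA (a STAT site, in 7.01%) and CACGTG (the E-box, in 6.02%), matched once each, in Psmb8 and Psmb10 respectively. CCAAT was the sole match in the Tap1, Tapbp and Psmb9 windows. Tap1 and Psmb9 are transcribed in opposite directions from start sites 226 bases apart, so their windows overlap. A match describes letters and not a bound site, and binding was not measured here.

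The heavy chains hold the peptide and span the membrane, and H2-K1 had the widest range of all members. H2-K1 was at 5630 and 4860 CPM in TPK, 1870 and 1740 CPM in TPM, 205 and 372 CPM in TPMCa, and 354 and 92.5 CPM in TPMR1. TPK lay above TPM and TPM above the other models with no overlap, whereas TPMCa and TPMR1 overlapped. H2-D1 was at 737 and 652 CPM in TPK, 279 and 249 CPM in TPM, 89.6 and 177 CPM in TPMCa, and 57.8 and 33.7 CPM in TPMR1. For H2-D1 none of the models overlapped, in the order TPK, TPM, TPMCa, TPMR1. The count ratio of H2-K1 to H2-D1 was 7.64 and 7.45 for TPK, 6.71 and 7 for TPM, 2.29 and 2.11 for TPMCa, and 6.12 and 2.75 for TPMR1. H2-K1 thus exceeded H2-D1 in all libraries, by less in both TPMCa libraries and in TPMR1 replicate 2. Class I genes share long stretches of sequence, and H2-Q6, H2-Q7, H2-T22 and H2-L were listed at 0 counts in all libraries. How reads were split among near-identical copies is therefore uncertain. Reads were aligned to the C57BL/6J genome and the hosts were BALB/cA-nu mice, so host heavy chain reads may be counted less fully. The effect of this on the levels and ratios was not tested.

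B2m, the invariant light chain that heavy chains need to reach the surface, was at 2840 and 3130 CPM in TPK, 1110 and 1180 CPM in TPM, 299 and 586 CPM in TPMCa, and 395 and 198 CPM in TPMR1. As for H2-K1, TPMCa and TPMR1 overlapped, and TPK and TPM stood above them and apart from each other. Per kilobase of the principal transcript, B2m was the most abundant member in all models, with 3470 ± 237 CPM per kb in TPK (SD, n = 2), followed by H2-K1 at 3240 ± 338 CPM per kb (SD, n = 2), and these did not differ beyond their spread. In TPMR1 B2m was at 345 ± 162 and H2-K1 at 138 ± 114 CPM per kb (SD, n = 2). Nlrc5 was the least abundant member per kilobase, at 20.4 ± 7.63 CPM per kb in TPK and 0.71 ± 0.289 CPM per kb in TPMR1 (SD, n = 2).

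The transporter genes came next. Tap1 was at 397 and 301 CPM in TPK, 156 and 150 CPM in TPM, 25.2 and 77.6 CPM in TPMCa, and 33.6 and 12.0 CPM in TPMR1. Tap2, its partner in the heterodimer, was at 175 and 163 CPM in TPK, 55.7 and 61.4 CPM in TPM, 21 and 56.4 CPM in TPMCa, and 26.7 and 17.1 CPM in TPMR1. Tap2 was the sole member in which a TPMCa library, replicate 2, reached the level of a TPM library. Tapbp (tapasin), which bridges TAP and the heavy chain, was at 514 and 705 CPM in TPK, 268 and 251 CPM in TPM, 71.7 and 153 CPM in TPMCa, and 116 and 93.3 CPM in TPMR1. Of the 10 members Tapbp had the narrowest range, 3.30 log2 units from its lowest to its highest library, against 5.93 for H2-K1 and 5.74 for Nlrc5.

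Psmb8, Psmb9 and Psmb10 replace the standard catalytic subunits Psmb5, Psmb6 and Psmb7 and change which peptides are cut. Psmb8 was at 270 and 250 CPM in TPK, 88.1 and 113 CPM in TPM, 12.4 and 68.6 CPM in TPMCa, and 16.5 and 11.7 CPM in TPMR1. Psmb9 was at 143 and 90.3 CPM in TPK, 39.1 and 38.6 CPM in TPM, 6.27 and 28.5 CPM in TPMCa, and 9.33 and 4.95 CPM in TPMR1. TPMCa replicate 2 stood well above TPMCa replicate 1 for both genes, and the latter lay among the TPMR1 libraries. Psmb10 was at 173 and 118 CPM in TPK, 46.8 and 53.3 CPM in TPM, 22 and 43.5 CPM in TPMCa, and 28.3 and 14.3 CPM in TPMR1.

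Nlrc5, the transactivator of class I genes, was the exception to the order. It was at 196 and 114 CPM in TPK, 99.3 and 132 CPM in TPM, 34.7 CPM in TPMCa replicate 2, 3.55 CPM in TPMCa replicate 1, and 6.93 and 3.84 CPM in TPMR1. TPK and TPM overlapped for Nlrc5, whereas both TPK libraries were above both TPM libraries for the other 9 members, as for 24.4% of all genes tested, and TPMCa replicate 1 was the lowest of all libraries.

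**Figure D1:**
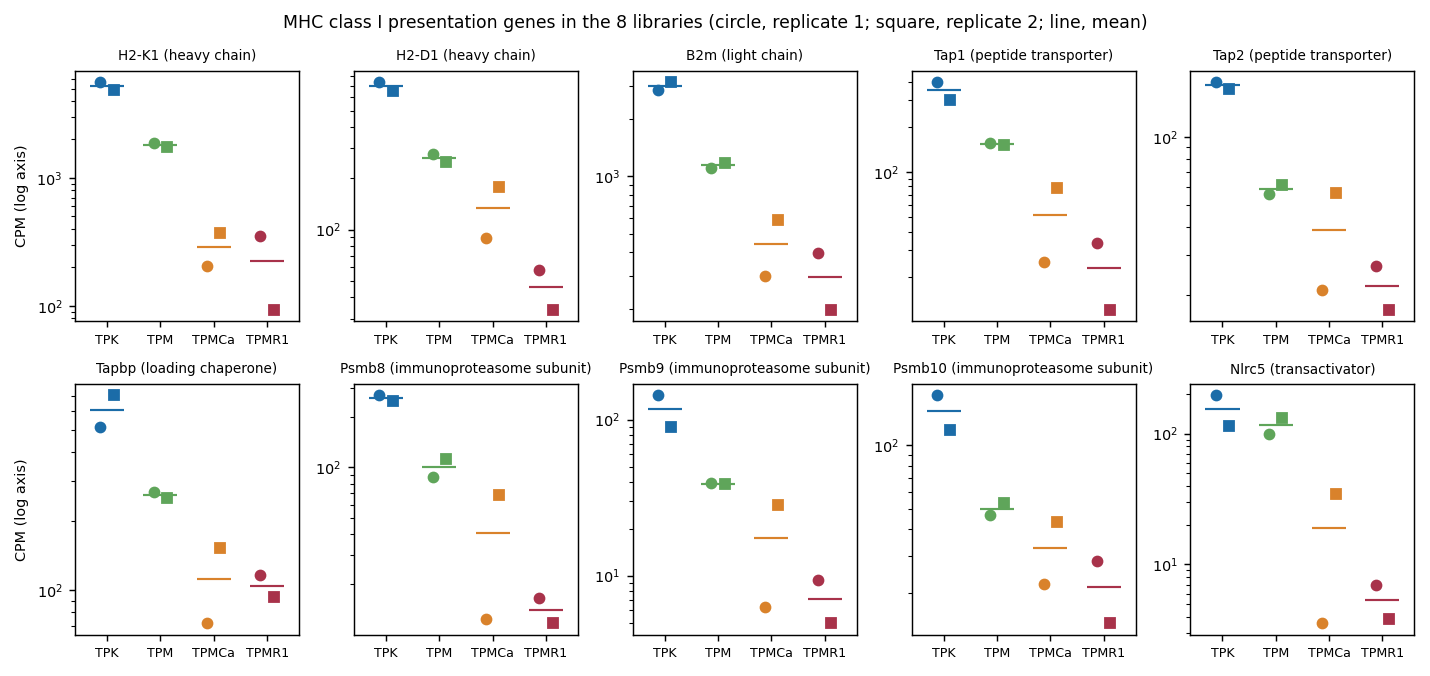
Level of each of the 10 genes in CPM on a log axis, with a point per library (circle, replicate 1; square, replicate 2) and a line at the mean of each model (n = 2). Both TPK libraries lie above the other 6 for 9 genes, Nlrc5 being the exception, and all TPK and TPM points lie above all TPMCa and TPMR1 points for 9 genes, Tap2 being the exception.

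Together the 10 genes took 1.01 and 1% of all counts in TPK, 0.39 and 0.427% for TPM, 0.0729 and 0.172% for TPMCa, and 0.1 and 0.0521% for TPMR1. Both TPK libraries lay above the other 6 for 9 of 10 members, as they did for 10.1% of all genes tested. All TPK and TPM libraries lay above all TPMCa and TPMR1 libraries for 9 of 10 members (not Tap2), against 14.8% of all genes tested. In the quasi-likelihood test of edgeR for any difference among the 4 models, 7 of 10 members passed an adjusted p of 0.05, against 7.32% of all genes tested. The others had adjusted p = 0.053 (Psmb8), 0.0539 (Psmb9) and 0.0732 (Nlrc5) in edgeR. Leaving out TPK replicate 1, TPK replicate 2 or TPM replicate 1 left 0 members called and leaving out TPM replicate 2 left 1, with the lone library of the model then assumed to vary like the rest.

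TPK, the model without introduced Myc, was compared with the mean of TPMCa and TPMR1, the models with a PI3K alteration. The 6 epithelial markers also differed here, with a median log2 difference of 7.7. The edits and the makeup of the samples therefore cannot be told apart. All 10 members were higher in TPK, and 10 of 10 passed the test of edgeR, against 10.3% of all genes tested that were called higher. The median log2 difference over the members was 3.25, against 0 over all genes tested. H2-K1 rose most, by 4.37 ± 0.55 on the log2 scale (SE, 20.7-fold, edgeR adjusted p = 0.00497), followed by Nlrc5 with 3.93 ± 0.77 (SE, edgeR adjusted p = 0.0209). Psmb10 with 2.46 ± 0.38 and Tapbp with 2.49 ± 0.33 (SE) showed the smallest differences. H2-D1 had the smallest edgeR adjusted p, 0.00322, with 3.15 ± 0.34 on the log2 scale (SE). A looser rule was a log2 fold change over 1 in size with an edgeR p under 0.05 before adjustment. Its thresholds are those the study set on DESeq2 results for comparisons among the tumor models, and here they were applied to edgeR results in all 6 comparisons. By this rule 10 of 10 members also passed, against 15.5% of all genes tested. Without TPK replicate 1 the count was 4 (H2-K1, H2-D1, B2m and Tapbp), and without TPK replicate 2 it was 4 (H2-K1, H2-D1, B2m and Psmb10).

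Against TPM, TPK was higher in all 10 members, with a median log2 difference of 1.39 against 0.01 over all genes tested, and no member passed the test of edgeR. No gene of the table passed it in this comparison (0% called higher). At an unadjusted p under 0.05 there were 5 members, all of which also passed the looser rule, against 2.32% of all genes tested, and DESeq2 called 0. These 5 were H2-D1, B2m, Tap2, Tapbp and Psmb10. H2-K1 had a log2 difference of 1.54 ± 0.65 (SE, edgeR adjusted p = 0.694) although both TPK libraries were above both TPM libraries. Nlrc5 had the smallest difference, 0.42 ± 0.90 (SE), and was -0.02 without TPK replicate 1.

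TPMCa was compared with TPM, which lacks the mutant Pik3ca. Epithelial markers also differed between these models, so the edit and the makeup of the samples cannot be told apart. All 10 members were at lower fitted levels in TPMCa, with a median log2 difference of -1.26 against -0.01 over all genes tested. None passed the test of edgeR, where 3.02% of all genes tested were called lower. At an unadjusted p under 0.05 there were 6 members, 5 of them with a log2 difference under -1 (H2-K1, B2m, Tap1, Tapbp and Nlrc5), against 11.7% of all genes tested. H2-K1 had the largest difference, -2.65 ± 0.67 (SE, edgeR adjusted p = 0.0871), and Tap2 the smallest, -0.60 ± 0.47 (SE). DESeq2 called 3 members lower, H2-K1, B2m and Nlrc5, and the share of all genes it called was not counted. The Nlrc5 difference was -2.60 ± 0.95 with all libraries and ranged from -5.02 to -1.72 over the alternatives, the former without TPMCa replicate 2.

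TPMR1 was compared with TPM, which lacks the sgRNA against Pik3r1, with the same limit from the epithelial markers. The median log2 difference over the members was -2.48, against 0.03 over all genes tested. H2-D1 fell by 2.53 on the log2 scale (SE 0.43, 5.77-fold, edgeR adjusted p = 0.0271) and was the sole member called, against 4.5% of all genes tested that were called lower. All 10 members passed the looser rule in the lower direction, against 12.6% of all genes tested. Nlrc5 had the largest difference, -4.42 ± 1.03 (SE, edgeR adjusted p = 0.0599), followed by H2-K1 with -3.02 ± 0.68 (SE, edgeR adjusted p = 0.056). DESeq2 called 9 members lower, with Psmb10 the exception, and the share of all genes it called was not counted. Leaving out either TPM library removed the call of H2-D1, whereas leaving out either TPMR1 library gave 2 calls, H2-K1 and H2-D1.

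**Figure D2:**
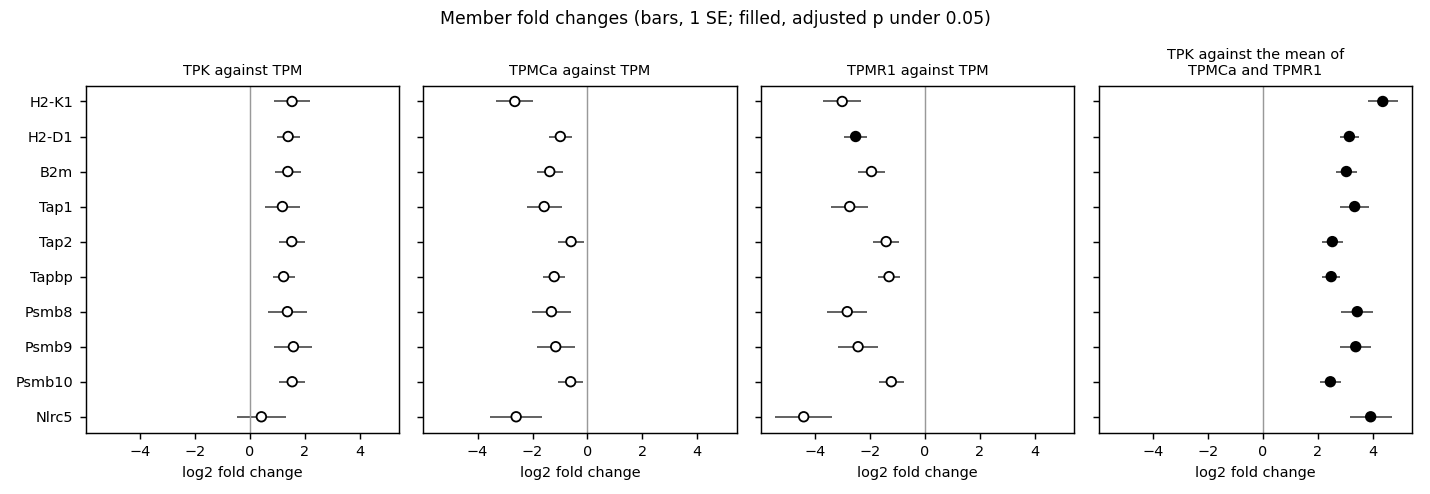
Log2 fold change of each member in 4 comparisons, with bars of 1 SE and filled points where the edgeR adjusted p was under 0.05. All points lie above 0 for TPK and below 0 for TPMCa and TPMR1 against TPM, and the 10 points of TPK against the mean of TPMCa and TPMR1 are all filled.

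TPM, the model that shares the introduced Myc, was also set against the mean of TPMCa and TPMR1, with the same limit from the epithelial markers. H2-K1 (2.83 ± 0.53), H2-D1 (1.76 ± 0.34), B2m (1.66 ± 0.39) and Nlrc5 (3.51 ± 0.76 on the log2 scale, SE) were higher in TPM and passed the test of edgeR, against 7.44% of all genes tested that were called higher. The 4 edgeR adjusted p-values lay between 0.0228 and 0.0469. The median over the 10 members was 1.78, against -0.02 over all genes tested, and 9 members passed the looser rule, against 13.5% of all genes tested. The count was 0 without either TPM library, 2 without TPMCa replicate 1, 7 without TPMCa replicate 2 and 2 without TPMR1 replicate 2. The comparisons above share libraries and are not independent of each other.

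Between TPMR1 and TPMCa no member passed the test of edgeR, and no gene of the table was called (0% called lower). H2-D1 was lower in TPMR1 with an unadjusted p = 0.00835 in edgeR and a log2 difference of -1.54 ± 0.42 (SE), the 1 member that passed the looser rule, against 5.88% of all genes tested. DESeq2, for which no share over all genes was counted, also called H2-D1 alone among the members. Its TPMR1 libraries were both below the TPMCa libraries, as for 17.7% of all genes tested, whereas those of the other 9 members overlapped. The median log2 difference was -1 against 0.01 over all genes tested.

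The ratio of an immunoproteasome subunit to the standard subunit it replaces removes the depth of the library. Psmb8 per kilobase was 1.81 and 1.69 times Psmb5 in TPK, 0.947 and 1.02 times in TPM, 0.134 and 0.827 times in TPMCa, and 0.0849 and 0.121 times in TPMR1. The ratio of Psmb9 to Psmb6 was 0.569 and 0.308 for TPK, 0.19 and 0.199 for TPM, 0.0224 and 0.101 for TPMCa, and 0.0408 and 0.0212 for TPMR1. Psmb10 to Psmb7 gave 0.991 and 0.594 for TPK, 0.25 and 0.258 for TPM, 0.0911 and 0.21 for TPMCa, and 0.109 and 0.0742 for TPMR1. Psmb8 thus exceeded Psmb5 in both TPK libraries and roughly equalled it in TPM. The log2 ratios differed among the 4 models by an exact permutation test over the 8 libraries (Psmb8 to Psmb5, p = 0.00952, the smallest possible; Psmb9 to Psmb6 and Psmb10 to Psmb7, p = 0.0381 each), with adjusted p-values over the 3 ratios of 0.0286, 0.0381 and 0.0381. Leaving out any TPK, TPM or TPMR1 library left 0 ratios past the threshold and leaving out either TPMCa library left 3. Psmb5, Psmb6 and Psmb7 themselves passed the test of edgeR in 0 of the 6 comparisons, and 0 of the 3 had an unadjusted p under 0.05 in any. Psmb5 ranged from 45.8 to 107 CPM, Psmb6 from 114 to 173 CPM and Psmb7 from 155 to 230 CPM.

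**Figure D3:**
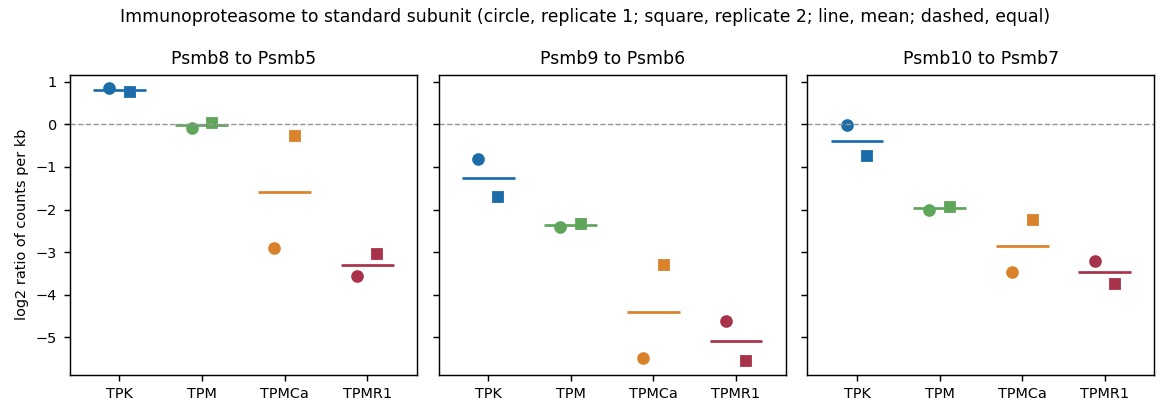
Log2 ratio of counts per kilobase of each immunoproteasome subunit to the standard subunit it replaces, with a point per library (circle, replicate 1; square, replicate 2) and a line at the mean of each model (n = 2). TPK is highest in all 3 panels, and the dashed line marks equal amounts, which Psmb8 exceeds in TPK.

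The rest of the pathway was read from a list of 48 further genes, of which 43 passed the filter. In TPK against the mean of TPMCa and TPMR1, 12 of 43 were called higher and 0 lower, against 10.3% of all genes tested that were called higher, with a median log2 difference of 0.37 against 3.25 over the members. Of the non-classical class I genes, which present restricted sets of ligands, 6 of 10 tested were called higher, led by H2-T10 (3.91 ± 0.46), H2-T23 (3.11 ± 0.41) and H2-Q4 (3.07 ± 0.32 on the log2 scale, SE). H2-Q4 was at 538 and 477 CPM in TPK, 184 and 209 CPM in TPM, 80.1 and 174 CPM in TPMCa, and 31.1 and 26.3 CPM in TPMR1. These heavy chain genes resemble each other in sequence, with the same doubt on how reads were split. Tapbpl, a tapasin relative that edits peptides, was 1 of 5 loading and quality control genes called (2.64 ± 0.63 on the log2 scale, SE), while the general chaperones Calr, Canx and Pdia3 were not called. Calr ranged from 509 to 1360 CPM, with TPMCa replicate 1 at 1240 CPM between the TPK libraries. Psme2, a subunit of the interferon-inducible proteasome activator, rose by 1.80 ± 0.31 (SE).

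In TPMR1 against TPM, 3 of 43 pathway genes were called lower, near the 4.5% of all genes tested: H2-T23 (-3.29 ± 0.53), H2-Q4 (-2.77 ± 0.41) and Ifngr2 (-1.54 ± 0.33 on the log2 scale, SE). In TPMCa against TPM edgeR called 0 of 43 in either direction, with 4 at an unadjusted p under 0.05. H2-T23, H2-Q4 and Ifngr2 were the 3 of 43 pathway genes called higher in TPM than in the mean of TPMCa and TPMR1. Their share was near the 7.44% of all genes tested that were called higher. Lnpep, an aminopeptidase that trims peptides in endosomes, was lower in TPM in that comparison (-2.31 ± 0.54, SE), against 1.45% of all genes tested that were called lower. It was at 15.8 and 6.75 CPM in TPM and between 29.7 and 95.1 CPM in TPMCa and TPMR1.

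Regulators of the pathway were read from the same list. Of 8 genes of interferon gamma signaling, 3 were higher in TPK than in the mean of TPMCa and TPMR1: the receptor chains Ifngr1 (1.55 ± 0.31) and Ifngr2 (1.40 ± 0.27) and the kinase Jak2 (1.31 ± 0.24 on the log2 scale, SE). Ifngr2 was at 71.0 and 133 CPM in TPK, 104 and 109 CPM in TPM, 38.8 and 42.6 CPM in TPMCa, and 38.3 and 35.5 CPM in TPMR1. Of 9 genes for the RFX, NF-Y, CREB and NF-kappaB factors that bind class I promoters, 1 was called higher, near the 10.3% of all genes tested. It was Nfkb1, with a log2 difference of 1.02 ± 0.20 (SE). Rfx5, which binds the X box, stayed between 34.2 and 46.4 CPM over all libraries.

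Of the genes for interferons themselves, Ifng, Ifnb1, Ifnl2, Ifnl3, Ifnk and Ifne were on the list, and no Ifna gene was. These 6 interferon genes summed to at most 1.49 CPM in any library, and none passed the filter. Ifng had 19 counts in TPMCa replicate 2, 2 counts in TPK replicate 1 and 0 elsewhere. Ifne had 8 and 6 counts in TPK, 3 and 13 counts in TPM, and 0 in TPMCa and TPMR1. Of 14 interferon-stimulated genes, 13 were called higher in TPK than in the mean of TPMCa and TPMR1 and 9 higher in TPM than in that mean, while 3 were called lower in TPMCa and 4 in TPMR1 against TPM. The shares of all genes tested that were called in these directions were 10.3%, 7.44%, 3.02% and 4.5%. Isg15, a ubiquitin-like modifier, was at 405 and 341 CPM in TPK, 182 and 105 CPM in TPM, 11.1 and 17.9 CPM in TPMCa, and 19.6 and 10.8 CPM in TPMR1.

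The genes whose profile over the 8 libraries was nearest to the mean profile of the members were ranked by the root mean square gap of centered log2 CPM among 10410 genes with a mean log2 CPM of at least 3. The nearest 6 were Trim30a (0.258 log2 units), Trim12c (0.341), Rnpep (0.354), Lgals3bp (0.363), H2-T23 (0.366) and Ube2l6 (0.369). Trim30a was at 115 and 172 CPM in TPK, 51.7 and 46.9 CPM in TPM, 9.94 and 33.1 CPM in TPMCa, and 12.8 and 8.84 CPM in TPMR1. Of the members, Psmb9 (0.211) and Tap1 (0.221) were nearest to their own mean profile and Nlrc5 (0.889) farthest. Each member is part of that mean, so these gaps are not on equal terms with those of the other genes.

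Markers of other cell types were read beside these results. The 4 leukocyte genes Ptprc, Cd52, Coro1a and Laptm5 summed to 505 and 467 CPM in TPK, 163 and 161 CPM in TPM, 540 and 922 CPM in TPMCa, and 46.5 and 215 CPM in TPMR1. The TPMCa libraries had the highest leukocyte sums, replicate 1 by a small margin over TPK replicate 1, and both TPK libraries were above both TPM libraries. None of the 4 leukocyte markers was called by edgeR between TPK and the mean of TPMCa and TPMR1, with 1 at an unadjusted p under 0.05. That mean joins TPMCa, above TPK in the leukocyte sum, and TPMR1, below it, so it does not show how TPK differs from either. TPMCa replicate 2, which exceeded TPMCa replicate 1 in all 10 members, also had the highest sums for B cells (160 CPM, against 1.28 to 15.4 CPM elsewhere), for T and NK cells (36.5 CPM, against 0.31 to 6.8 CPM) and for macrophages (4380 CPM, against 302 to 2820 CPM). The neutrophil genes went the other way, with 1940 CPM in TPMCa replicate 1 and 268 CPM in replicate 2. Of the 9 T and NK cell genes 0 were at 0 counts in TPMCa replicate 2, and 1 to 4 were at 0 in the others.

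All 6 epithelial markers were present above 0 in all libraries. By edgeR all 6 were called higher in TPK than in the mean of TPMCa and TPMR1, against 10.3% of all genes tested. All 6 were also called higher in TPM than in that mean, against 7.44% of all genes tested. Epcam was at 322 and 527 CPM in TPK, 313 and 392 CPM in TPM, 5 and 3.12 CPM in TPMCa, and 0.813 and 0.389 CPM in TPMR1. The epithelial sum was 3240 and 4960 CPM in TPK and 5500 and 2940 CPM in TPM. TPK and TPM overlapped in this sum and differed without overlap in 9 members, against 24.4% of all genes tested. The part of the epithelial, leukocyte and lymphocyte markers in the class I differences was not tested.

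**Figure D4:**
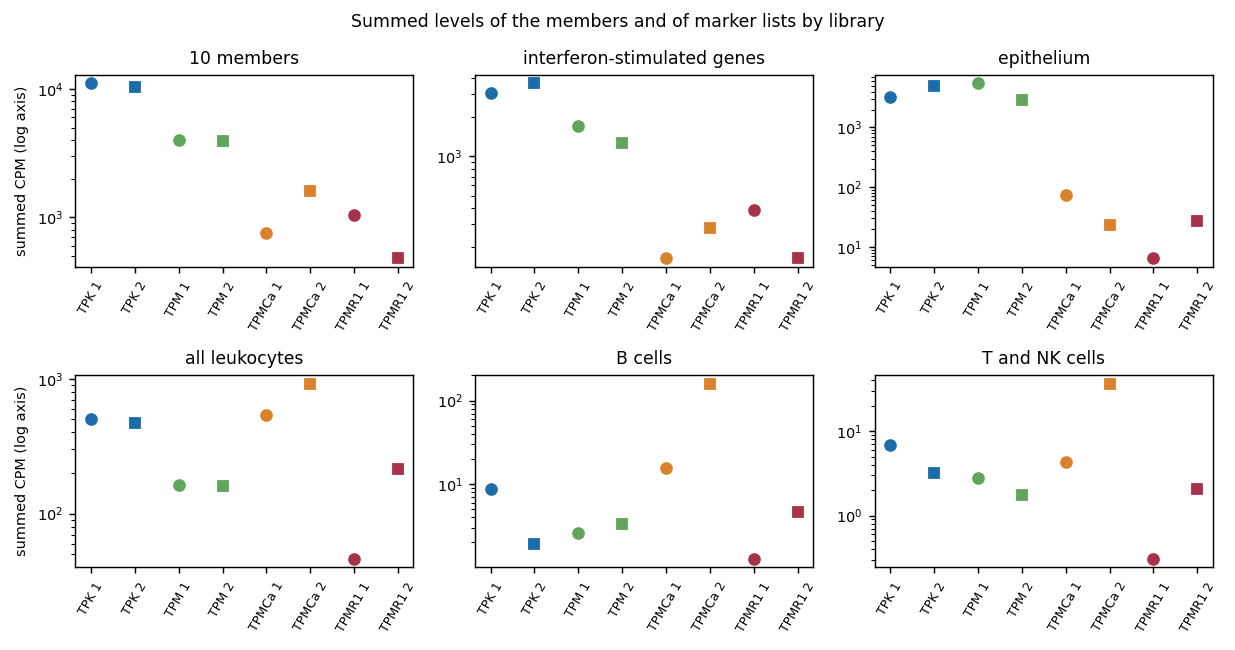
Summed CPM on a log axis of the 10 members, the interferon-stimulated genes and 4 marker lists in each library (circle, replicate 1; square, replicate 2). The member and interferon sums are highest in TPK and next in TPM, the epithelial sum separates TPK and TPM from the other models, and TPMCa replicate 2 is highest for leukocytes, B cells, and T and NK cells.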

How the data were processed

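The counts deposited by the authors were used for all results. Per the study's methods, paired reads were aligned with STAR to mm10; the counter and its annotation are not given in the sources used here. A normalized table was not used. Heavy chain genes vary between mouse strains and mm10 is the C57BL/6J genome, so reads of other haplotypes may be counted less fully; this was not tested. Some genes and edits are not reported here.

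Libraries were grouped by the labels. Counts were scaled by TMM, filtered by filterByExpr and fitted by the quasi-likelihood method of edgeR 4.0.16 in R 4.3.3, with a term for the model over all 8 libraries and a common dispersion of 0.269. Benjamini-Hochberg adjustment covered all 15875 genes tested, a gene was called at an adjusted p under 0.05, and SEs were derived from the F statistic. Tests of fold changes were two-sided. The exact permutation test used the F statistic of log2 ratios, which has no direction. Scripts were tested on simulated data. Lengths are those of the longest APPRIS principal transcript in GENCODE M21, and the motifs were searched in RefSeq windows. DESeq2 1.42.0, other scalings, filters, a replicate block and leaving out each library were tried as alternatives.

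Members and lists were chosen with earlier results of these data known. Named were all members in all libraries, up to 3 called genes a list by size of change, the genes of the ratios and the 6 genes nearest in profile; Calr, Canx, Pdia3, Rfx5, Lnpep, Isg15 and the genes at 0 were named after their values were seen.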

Additional observations from a re-analysis of the deposited data

How the results depend on the processing

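Of 700 member fold changes computed under an alternative, 9 changed sign, all 9 without one library. Over the fits that left out a library, Nlrc5 in TPK against TPM lay between -0.02 (without TPK replicate 1) and 0.76. In TPMR1 against TPMCa the lowest and highest values were -2.31 and 0.18 for Psmb8, -2.02 and 0.19 for Psmb9, -2.71 and 0.6 for Nlrc5 and -1.39 and 0.06 for Tap2, the highest being without TPMCa replicate 2. There H2-K1 lay between -1.64 and 0.29 and Tapbp between -0.57 and 0.54, and both were above 0 without TPMCa replicate 2 (H2-K1 0.12) and without TPMR1 replicate 2 (Tapbp 0.05).

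Counts of members called are given against the main counts of 7 (any difference), 0 (TPMCa against TPM), 1 (TPMR1 against TPM), 0 (TPK against TPM), 0 (TPMR1 against TPMCa), 4 (TPM against the mean of the other Myc models) and 10 (TPK against that mean). DESeq2 gave 3 for TPMCa against TPM, 9 for TPMR1 against TPM, 1 for TPMR1 against TPMCa and 8 for TPM against the mean. The share of all genes that DESeq2 called was not counted, so its counts have no background beside them. TPMR1 against TPM gave 2 with library size alone and 4 with no filter on low counts. With only the models compared, TPMCa against TPM gave 1, TPMR1 against TPM gave 0 and TPM against the mean gave 1. The looser rule, a log2 fold change over 1 with an edgeR p under 0.05 before adjustment, gave 5 for TPMCa against TPM, 10 for TPMR1 against TPM, 5 for TPK against TPM, 1 for TPMR1 against TPMCa and 9 for TPM against the mean. Leaving out each library gave 0 to 7 for any difference, 0 to 2 for TPMR1 against TPM, 0 to 7 for TPM against the mean, 4 to 10 for TPK against the mean, and 0 to 3 subunit ratios. Fewer libraries alone lower the power; other causes were not tested.

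Libraries share replicate numbers across models, but same-numbered libraries did not deviate together, with correlations of -0.069 to -0.008 over the 6 pairs of models, so the number was not taken as a pairing. With a replicate block the counts were 2 for any difference, 0 for TPMR1 against TPM and 1 for TPM against the mean, and the block changed no other count of members. Over all genes the block moved TPMCa against TPM from 553 to 362 calls and TPMR1 against TPM from 886 to 557.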

Other observations

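MHC class II genes were looked at after their values had been seen, as a neighbouring presentation pathway. H2-Aa, a class II chain of professional antigen-presenting cells, was at 143 and 32.2 CPM in TPK, 62.1 and 29 CPM in TPM, 28.6 and 219 CPM in TPMCa, and 1.05 and 6.95 CPM in TPMR1. The highest library was TPMCa replicate 2, unlike for the class I members, whose highest library was a TPK library in all 10 cases. H2-Ea-ps, the class II E alpha gene that is not transcribed in C57BL/6 mice, had 1719 and 142 counts in TPK, 703 and 328 counts in TPM, 434 and 3680 counts in TPMCa, and 14 and 81 counts in TPMR1. All 8 libraries were therefore above the floor of 3 counts.

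The count ratio of H2-K1 to B2m was 1.98 and 1.55 for TPK, 1.69 and 1.47 for TPM, 0.686 and 0.635 for TPMCa, and 0.895 and 0.468 for TPMR1. All TPK and TPM libraries were above 1 and all TPMCa and TPMR1 libraries below it. The limit on counting host heavy chain reads applies to this ratio too, and the cause was not tested.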
